A study of Drosophila melanogaster with 6 samples.

Results

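The imaginal disc growth factors (Idgfs) of *Drosophila melanogaster* are a family of secreted proteins related to chitinases, and the transcripts of its 6 genes, *Idgf1* to *Idgf6*, were followed in the adult female fat body under RNAi against the nuclear receptor gene *svp*. The genes were chosen by name among the 17558 genes listed. Of these, 5 are listed under the Idgf name, and the other, *Idgf6*, is listed as *CG5210* and was found by its FlyBase identifier (FBgn0013763). RNA was sequenced from 3 libraries of *Luc* control RNAi, in which the hairpin targets firefly luciferase, and from 3 libraries of *svp* RNAi. Females of both groups were *y w* and carried PromE800-Gal4, tub-Gal80ts and the adipocyte driver 3.1Lsp2-Gal4, so that either hairpin (UAS-Luc JF01355 or UAS-svp GD1546) was expressed in oenocytes and adipocytes only once the temperature-sensitive Gal80 repressor was inactivated. Flies were raised at 18°, collected at 0 to 2 days of age, kept at 18° with males for another 3 days and then moved to 29° for 5 days, and cells dissociated from pooled abdominal carcasses (100 females of each genotype) gave the RNA. The sample labels call the control genotype wild type. Each hairpin is 1 transgene, so the effects of a particular insertion and of the knockdown cannot be told apart.

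Idgfs fold like the chitinases of glycoside hydrolase family 18 but lack the acidic residue that those enzymes need to cut chitin. The family was found as factors that, together with insulin, make cultured imaginal disc cells proliferate, and it is produced in the fat body and in hemocytes and released into the hemolymph. Members have since been linked to cuticle integrity, wound closure and defence against infection.

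Library totals ranged from 15648948 to 19476599 counted fragments. Counts of the targeted gene *svp* were 678, 1141 and 1168 under *Luc* control RNAi and 1480, 1214 and 1421 under the *svp* RNAi label. Its fitted log2 difference was 0.35 (SE, standard error, 0.39, edgeR adjusted p = 1.00), with the lowest count in *Luc* control RNAi replicate 1. These counts thus do not show a lower *svp* transcript where the label names it, and the directions given here are differences between labelled groups. Whether reads of the *svp* hairpin were counted as *svp* was not tested, and the paper's separate RT-qPCR measure of *svp* is not part of these counts. *Luc* control RNAi replicate 1 stood apart, with a scaling factor of 1.39 by the TMM method of edgeR against 0.824 to 1.13 elsewhere. CPM values are counts scaled to the TMM-adjusted total of the library. The yolk protein genes *Yp1*, *Yp2* and *Yp3* of the fat body and *Cyp4g1* of oenocytes were abundant in every library.

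*Idgf1*, *Idgf2* and *Idgf3* lie head to tail on the plus strand of chromosome 2L (BDGP6 coordinates throughout). *Idgf1* (FBgn0020416) spans 16445278 to 16446793 with 2 exons, and *Idgf2* (FBgn0020415) begins 536 bases further on and spans 16447330 to 16450508. After another 398 bases, *Idgf3* (FBgn0020414) runs from 16450907 to 16455194 and has 4 annotated transcripts, the longest of 3801 bases. *Idgf1* and part of *Idgf2* lie within the span of *CG5888*, a gene on the opposite strand, with 0 exonic bases in common. *Idgf4* (FBgn0026415) lies on the minus strand of chromosome X from 9927973 to 9930948. *Idgf5* (FBgn0064237) lies on chromosome 2R from 18393666 to 18395282, with the glutathione S-transferase gene *GstE10* on its right. *Idgf6* lies on chromosome 2R from 16691022 to 16693751, within *CG30463* (*Pgant9*) on the opposite strand, again with 0 exonic bases in common. The annotated proteins are of similar length, with 439 codons for *Idgf1* and 452 for *Idgf6* at the ends of the range of the longest forms. A shorter *Idgf2* form of 368 codons is also annotated. The genes are paralogs, and how reads that match several of them were counted is not given in the sources used here.

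All 6 genes were well expressed and passed the filter on low counts. Levels are compared between genes in FPKM, the deposited values that correct for transcript length and library total. Under *Luc* control RNAi *Idgf4* was the most abundant, at 524 ± 134 FPKM (SD, n = 3), followed by *Idgf6* at 447 ± 83.4 (SD, n = 3). *Idgf2*, at 225 ± 54.0, and *Idgf1*, at 156 ± 45.0, formed a middle pair (SD, n = 3). *Idgf5*, at 68.5 ± 24.5, and *Idgf3*, at 50.5 ± 13.4, were the least abundant (SD, n = 3). Among all 17558 genes, *Idgf4* ranked between 162 and 200 by FPKM across the 6 libraries, and *Idgf3* between 1027 and 2436. Ranges over the control libraries overlapped within each of these pairs, but in every control library the first of a pair was above the second. Between pairs the ranges did not overlap.

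The same 3 pairs followed each other in the same order under the *svp* RNAi label. Within the first pair the order of the means was the other way, with *Idgf6* at 569 ± 36.8 FPKM and *Idgf4* at 536 ± 50.6 (SD, n = 3). *Idgf2* was at 252 ± 42.4, *Idgf1* at 178 ± 26.5, *Idgf5* at 62.2 ± 10.9 and *Idgf3* at 43.5 ± 5.04 FPKM (SD, n = 3). *Idgf6* was above *Idgf4* in each of these 3 libraries, although the ranges of these genes overlapped. On TMM-scaled totals and the listed exonic lengths *Idgf3* was at 28.3 FPKM under the *svp* RNAi label and 35.95 FPKM in the controls. Within each group the order of the 6 means on that scale was that of the deposited FPKM, with *Idgf4* above *Idgf6* in the controls only. Together the 6 genes took between 0.180% and 0.297% of all counts of a library.

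**Figure D1:**
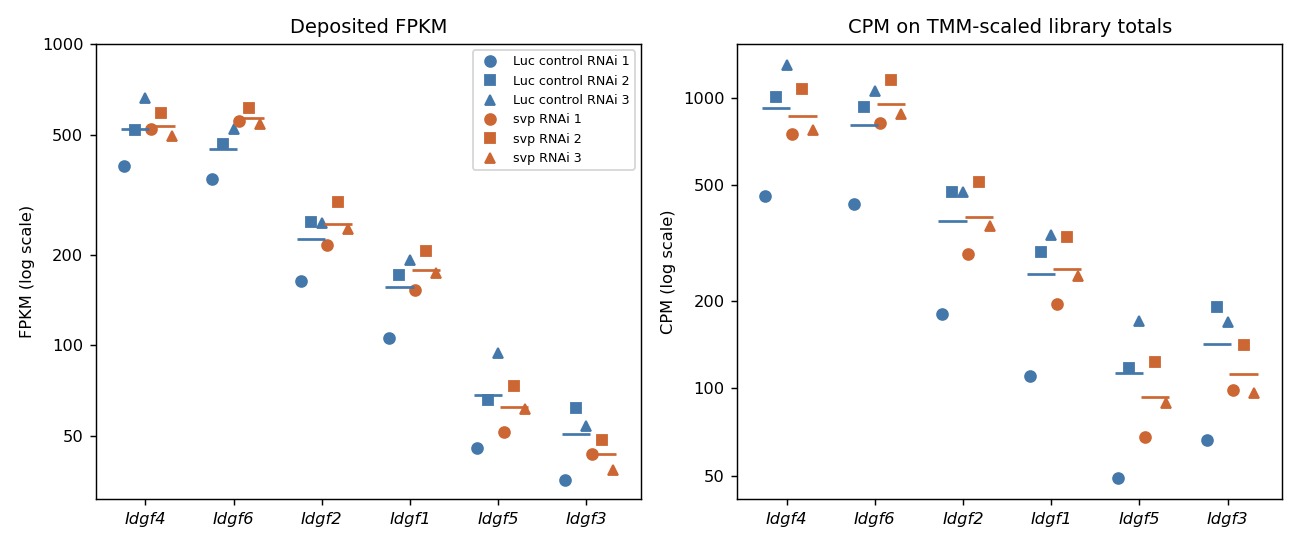
Level of each Idgf gene in each library, as deposited FPKM on the left and as CPM on TMM-scaled totals on the right, both on log axes, with horizontal lines at the group means. *Luc* control RNAi replicate 1 has the lowest value of every gene in both panels, from 35.7 FPKM for *Idgf3* to 393 FPKM for *Idgf4*.

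The first comparison asked whether any member differed between the *svp* RNAi and *Luc* control RNAi labels. With edgeR's quasi-likelihood test and Benjamini-Hochberg adjustment over 9277 genes, 0 of the 6 members were called at a threshold of 0.05 (each adjusted p = 1.00), while 9 genes, or 0.097% of those tested, were called. At an unadjusted p under 0.05, 0 members passed, against 4.99% of all genes tested. DESeq2 also called 0 members while calling 1.45% of the genes it adjusted. With sample quality weights, limma voom called 6.51% of all genes and 1 member, *Idgf3*. The log2 fold changes of the members in edgeR ranged from -0.34 to 0.24, with 3 above and 3 below 0. Their median was -0.020, beside a median of -0.056 over all genes tested. CPM overlapped between the groups for each of the 6 genes, whereas 9.32% of all genes tested did not overlap (4.51% higher and 4.82% lower under the *svp* RNAi label).

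*Idgf1* stood at 110, 295 and 337 CPM under *Luc* control RNAi and at 195, 333 and 244 CPM under the *svp* RNAi label. The lowest and the highest of these 6 values were both controls. The log2 fold change in edgeR was 0.058 (SE 0.43), and its 95% interval ran from -0.97 to 1.09. *Idgf2*, whose protein served for the crystal structure of the family, stood at 180, 472 and 475 CPM in the controls and at 290, 512 and 363 CPM under the *svp* RNAi label. Here the lowest value was a control and the highest was *svp* RNAi replicate 2. For this gene the log2 fold change was 0.048 (SE 0.42), with a 95% interval between -0.95 and 1.04.

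*Idgf3*, which has been linked to hemolymph clots and to survival of nematode infection, stood at 66.5, 191 and 169 CPM in the controls. Under the *svp* RNAi label it stood at 98.8, 141 and 96.4 CPM, all between the lowest and the second lowest control. A log2 fold change of -0.34 (SE 0.40, 95% interval from -1.30 to 0.61) was the most negative of the family. With sample quality weights it was -0.74 (limma voom adjusted p = 0.0466), while in every other alternative the adjusted p was between 0.288 and 1.00. That fit gave *Luc* control RNAi replicate 1 a weight of 0.138 and *svp* RNAi replicate 3 a weight of 4.46.

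*Idgf4* stood at 460, 1004 and 1300 CPM in the controls and at 749, 1075 and 775 CPM under the *svp* RNAi label, so that the controls spanned the other group on both sides. The log2 fold change was -0.089 (SE 0.41), with a 95% interval from -1.05 to 0.88. *Idgf5* was distributed likewise, at 49.0, 118 and 171 CPM in the controls against 68.2, 123 and 89.0 CPM. For *Idgf5* the log2 fold change was -0.27 (SE 0.46), and the 95% interval, from -1.36 to 0.82, was the widest of the family.

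*Idgf6*, first purified as the glycoprotein DS47 from the medium of cultured *Drosophila* cells, stood at 431, 930 and 1059 CPM in the controls and at 820, 1148 and 882 CPM under the *svp* RNAi label. The second and the third of these controls lay inside the range of the *svp* RNAi label. A log2 fold change of 0.24 (SE 0.37, 95% interval from -0.65 to 1.12) was the most positive of the family. In deposited FPKM, which are scaled to the plain library total, *Idgf6* was the one member whose groups did not overlap, at 357, 464 and 521 FPKM in the controls against 554, 611 and 543 FPKM. On that scale 7.73% of all genes tested were higher under the *svp* RNAi label without overlap and 4.37% were lower. Genes of the mitochondrial genome took 14.1%, 25.5% and 19.7% of the counts in the controls and 10.5%, 14.8% and 13.5% under the *svp* RNAi label, and their part in the FPKM of *Idgf6* was not tested.

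**Figure D2:**
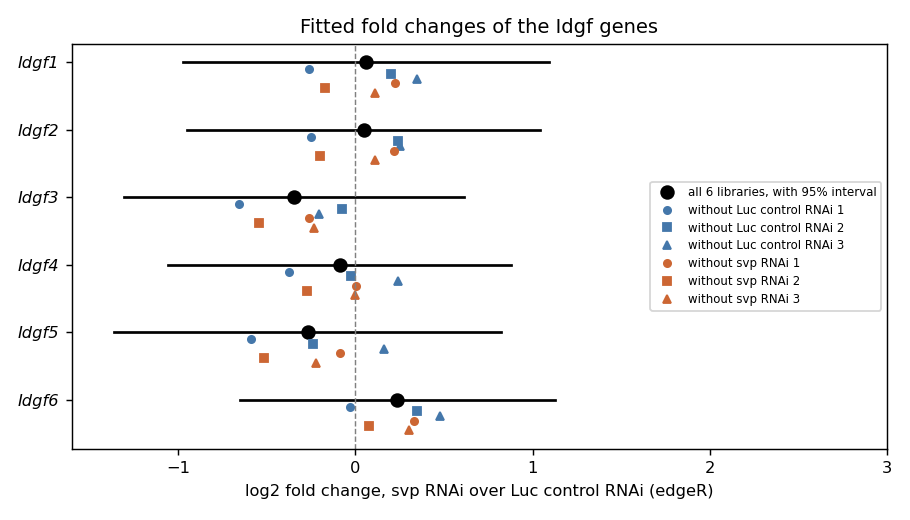
Fitted log2 fold change of each Idgf gene (x axis, positive where the *svp* RNAi label is higher), with its 95% interval as a black line and the values of the fits that left out 1 library each as small symbols. Every interval from the 6 libraries includes 0, and leaving out *Luc* control RNAi replicate 1 moved all 6 values down, to between -0.65 and -0.030.

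Standard errors of the members, from 0.37 to 0.46, were above the median of 0.348 over all genes tested. The intervals above are not adjusted over all genes and are not limits of detection, so differences of a size outside them could also go uncalled. *Luc* control RNAi replicate 1 had the lowest log2 CPM of each member, as it had for 34.9% of all genes tested. Without it the median log2 fold change of the 6 genes was -0.32, and edgeR called 0 members among 61 genes (0.641%). Without *Luc* control RNAi replicate 3 that median was 0.25, again with 0 members called.

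Markers of several cell types were low in the same library. The summed level of the 6 Idgf genes was 1297, 3010 and 3510 CPM in the controls and 2221, 3331 and 2450 CPM under the *svp* RNAi label. The 6 markers of adult fat body summed to 63386, 135338 and 183191 CPM in the controls and to 151256, 187621 and 147788 CPM under the *svp* RNAi label. Both sums were lowest in *Luc* control RNAi replicate 1, and so was that of the 4 oenocyte markers, which lay between 5900 CPM there and 22865 CPM. The fat body sum was carried by *Yp1*, *Yp2* and *Yp3*, and the transferrin gene *Tsf1* of the same list differed from them, at 5128, 13008 and 19314 CPM in the controls and 3714, 6547 and 3247 CPM under the *svp* RNAi label (log2 fold change -1.47, SE 0.59, edgeR adjusted p = 0.956). Hemocytes are another known source of Idgfs, and their 7 markers summed to between 808 and 2430 CPM in the controls and between 956 and 2222 CPM under the *svp* RNAi label, with the defining marker *Hml* present in every library. Of these markers 2 had a log2 fold change above 0 and 5 below, and 0 were called in edgeR. In deposited FPKM *Luc* control RNAi replicate 1 was the lowest library for *Hml* (39.8) and *NimC1* (18.2) only. It was not for *eater*, *crq*, *Sr-CI*, *He* or *Pxn*, the last at 49.2 FPKM there against 35.0 in *svp* RNAi replicate 1. *NimC1* stood at 31.1, 96.4 and 70.4 CPM in the controls against 84.2, 214 and 108 CPM (log2 fold change 1.04, SE 0.50), while *Pxn* had a log2 fold change of -0.50 (SE 0.52). By contrast, the 8 midgut markers summed to 1344, 284 and 353 CPM in the controls and to 494, 617 and 901 CPM under the *svp* RNAi label, highest in *Luc* control RNAi replicate 1. The amylase gene *Amy-p* made up most of that sum outside *Luc* control RNAi replicate 1, at 353, 274 and 347 CPM in the controls against 464, 612 and 466 CPM (log2 fold change 0.66, SE 0.22, edgeR adjusted p = 0.795). Each other midgut marker was at 10.2 CPM (*Mal-A1* in *svp* RNAi replicate 1) or less except in *Luc* control RNAi replicate 1 and *svp* RNAi replicate 3. The trypsin gene *betaTry* among them was at 0 in *Luc* control RNAi replicates 2 and 3 and in *svp* RNAi replicate 2. Ovary markers (12 genes) ranged from 486 to 1669 CPM in the controls and from 1003 to 2771 CPM under the *svp* RNAi label. The germline genes *osk*, *nos*, *vas* and *bcd* among them were each highest in *Luc* control RNAi replicate 1. *osk* stood at 371, 71.5 and 178 CPM in the controls and at 250, 86.5 and 188 CPM under the *svp* RNAi label. The eggshell gene *Vm26Aa* differed, at 293, 249 and 66.4 CPM in the controls against 742, 415 and 204 CPM (log2 fold change 1.16, SE 0.65). Muscle markers (8 genes, with *fln* at 0 throughout) ranged from 189 to 1284 CPM and from 344 to 482 CPM. The part of these cell types in the Idgf levels was not tested, and in bulk RNA fewer cells of a type and less RNA per cell cannot be told apart.

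**Figure D3:**
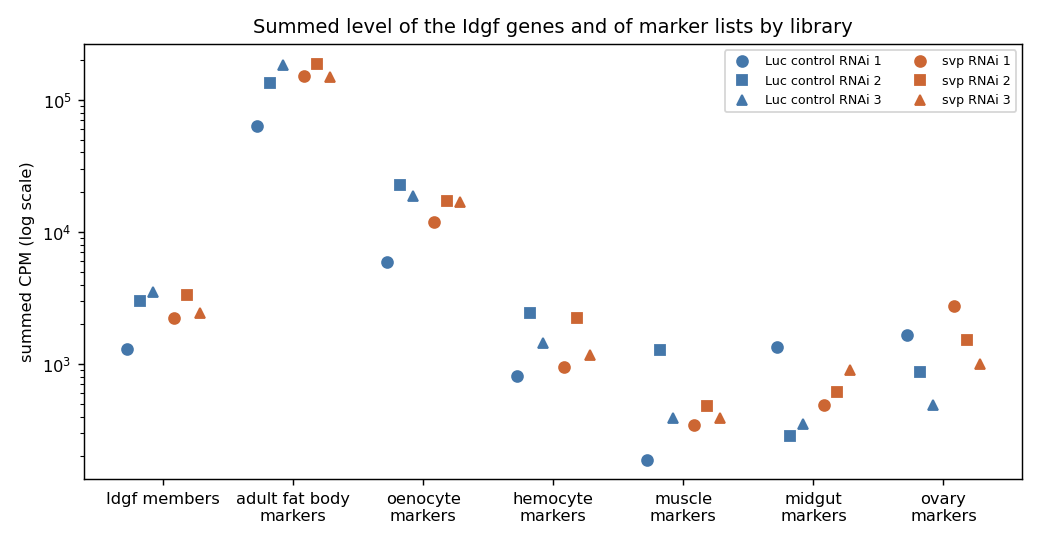
Summed CPM, on a log axis, of the 6 Idgf genes and of marker lists of 6 cell types in each library. On these TMM-scaled totals *Luc* control RNAi replicate 1 (1297 CPM for the Idgf genes) is also the lowest library for the adult fat body, oenocyte, hemocyte and muscle lists. It is the highest for the midgut list.

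The makeup of the family within a library does not depend on how libraries are scaled, and it was examined after the levels had been seen. *Idgf6* made up 32.4%, 30.2% and 29.3% of the summed FPKM of the family in the controls and 35.98%, 33.4% and 34.9% under the *svp* RNAi label. All 3 of the latter were above all 3 of the former. *Idgf3* made up 3.25%, 4.03% and 3.04% in the controls and 2.82%, 2.66% and 2.48% under the *svp* RNAi label, with the groups apart in the other direction. *Idgf5* likewise took 4.13%, 4.29% and 5.30% in the controls and 3.36%, 4.02% and 3.95% under the *svp* RNAi label. The shares of *Idgf1*, *Idgf2* and *Idgf4* overlapped between the groups. Shares within a library are parts of the same sum, so a higher share of one member lowers the others and these separations are not independent. No rate over all genes tested was computed for such shares. For ratios of counts to a single member, between 8.35% (*Idgf5*) and 15.5% (*Idgf6*) of the other genes tested did not overlap.

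Ratios of counts were then taken between members. *Idgf4* had 1.07, 1.08 and 1.23 counts per count of *Idgf6* in the controls, and 0.913, 0.936 and 0.879 under the *svp* RNAi label. In each control library *Idgf4* was thus the more counted of these genes, and in each library with the *svp* RNAi label *Idgf6* was. The ratio of *Idgf3* to *Idgf6* was 0.154, 0.205 and 0.160 in the controls and 0.121, 0.122 and 0.109 under the *svp* RNAi label, a mean difference of -0.55 on the log2 scale. *Idgf5* over *Idgf6* was 0.114, 0.127 and 0.161 against 0.0832, 0.107 and 0.101, a mean log2 difference of -0.46. For each of these 3 ratios the exact two-sided permutation test gave p = 0.1, the smallest that 3 libraries against 3 allow, so that this test cannot pass 0.05.

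Of the 15 pairs of members, which share genes and are not independent, 6 did not overlap between the groups, and after Benjamini-Hochberg adjustment the smallest p of the exact tests was 0.25. Besides the ratios to *Idgf6*, these were *Idgf2* over *Idgf3*, at 2.71, 2.47 and 2.81 in the controls against 2.94, 3.64 and 3.76, and *Idgf1* and *Idgf2* over *Idgf5*, both higher under the *svp* RNAi label. As background, the ratio of every other gene tested to a member did not overlap for 9.9% of genes with *Idgf1*, 10.3% with *Idgf2*, 11.8% with *Idgf3*, 9.71% with *Idgf4* and 8.35% with *Idgf5*. To *Idgf6* it did not overlap for 15.5%, and 12.9% were lower under the *svp* RNAi label, as *Idgf3*, *Idgf4* and *Idgf5* were.

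**Figure D4:**
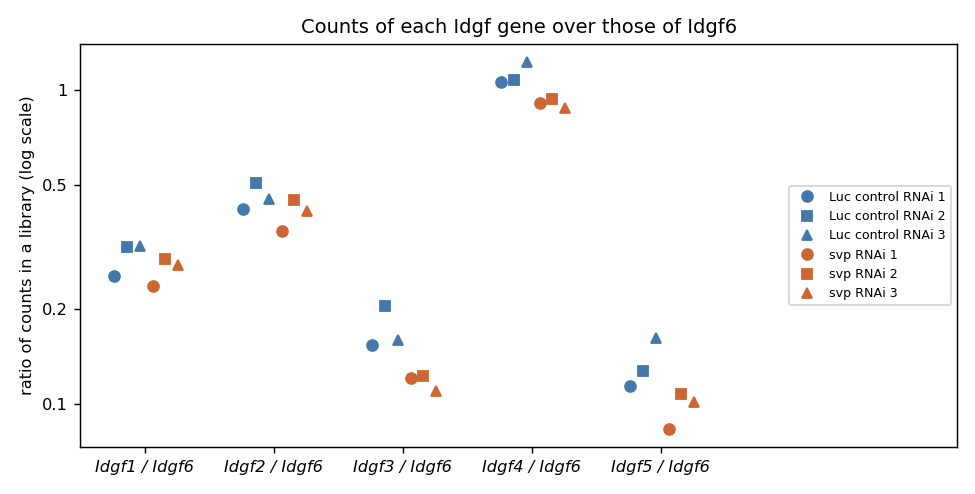
Counts of *Idgf1* to *Idgf5* divided by those of *Idgf6* in the same library, on a log axis. The groups are apart for *Idgf3*, *Idgf4* and *Idgf5*, and overlap for *Idgf1* and *Idgf2*, whose ratios lie between 0.238 and 0.507.

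Genes of chitinases, chitin handling, the insulin pathway and another growth factor family, and those next to *Idgf1*, *Idgf2* and *Idgf3*, were fitted in the same table. Of 47 such genes tested, 0 were called in edgeR and 2 had an unadjusted p under 0.05, *jhamt* and *CS-2*, near the 4.99% of all genes tested. The same genes were called in some alternative fits, which called 1.45% (DESeq2), 6.51% (limma voom) and 0.641% (edgeR without *Luc* control RNAi replicate 1) of all genes. *jhamt*, which encodes a methyltransferase of juvenile hormone synthesis, is the next gene on the left of *Idgf1*, 78238 bases away. It stood at 9.58, 24.3 and 26.6 CPM in the controls and at 6.48, 6.44 and 4.41 CPM under the *svp* RNAi label, without overlap. The log2 fold change was -1.80 (SE 0.43, edgeR adjusted p = 0.404). DESeq2 (adjusted p = 0.00694), limma voom with weights (adjusted p = 0.00298) and edgeR without *Luc* control RNAi replicate 1 (adjusted p = 0.0235) called it, and in the other alternatives the adjusted p was between 0.169 and 1.00. *dac*, which encodes a nuclear regulator of leg and eye development, begins 11317 bases after *Idgf3*. Its counts were 12, 20 and 2 under *Luc* control RNAi against 2, 1 and 10 under the *svp* RNAi label, with a log2 fold change of -1.40 (SE 1.07, edgeR adjusted p = 1.00). *CG5888*, which spans *Idgf1*, stood at 7.41, 18.1 and 13.3 CPM against 8.07, 12.2 and 7.07 CPM, with a log2 fold change of -0.50 (SE 0.39, edgeR adjusted p = 1.00). *GstE10*, on the right of *Idgf5* and outside those 47 genes, had a fold change in the other direction, with 78, 55 and 22 counts under *Luc* control RNAi against 207, 89 and 72 (log2 fold change 1.22, SE 0.47, edgeR unadjusted p = 0.0362, adjusted p = 0.912).

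The genes of chitinases, the enzymes to which Idgfs are related, were measured at lower FPKM than any Idgf gene. *Cht2* reached the highest value of the 10 genes found, 19.8 FPKM in *Luc* control RNAi replicate 1, whereas the lowest value of any Idgf gene was 35.7 FPKM. Of these chitinase genes 8 were tested, with a median log2 fold change of -0.099, 3 above and 5 below 0. *Cht4* had the largest fold change in size, at 3.02, 6.79 and 1.56 CPM in the controls and 3.04, 1.58 and 1.97 CPM under the *svp* RNAi label (log2 fold change -0.78, SE 0.59, edgeR adjusted p = 1.00). *Cht9* came next, with a log2 fold change of -0.56 and an SE of 0.73. For both genes the groups overlapped.

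Another family of insect growth factors, the adenosine deaminase-related growth factors, which break down extracellular adenosine, had 5 genes in the files and 3 tested, with a median log2 fold change of -0.091. *Adgf-D* stood at 36.9, 78.8 and 102 CPM in the controls and at 65.2, 113 and 99.6 CPM under the *svp* RNAi label, lowest in *Luc* control RNAi replicate 1 as the Idgf genes were. The log2 fold change was 0.35 (SE 0.40, edgeR adjusted p = 1.00). *Adgf-C*, at 0.680 to 1.90 CPM, had a fold change of -0.67 on the log2 scale (SE 0.47, edgeR adjusted p = 1.00).

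Of 18 genes of chitin synthesis, assembly and breakdown, 14 were tested, with a median log2 fold change of -0.094. The chitin synthase gene *CS-2* (*Chs2*), which serves the lining of the gut, stood at 28.2, 57.8 and 41.6 CPM in the controls and at 15.8, 11.7 and 15.1 CPM under the *svp* RNAi label. These groups did not overlap, and the log2 fold change was -1.58 (SE 0.31, edgeR adjusted p = 0.239). *CS-2* was called by DESeq2 (adjusted p = 0.000665), by limma voom with weights (adjusted p = 0.00282) and by edgeR without *Luc* control RNAi replicate 1 (adjusted p = 0.0383), and in the other alternatives the adjusted p was between 0.183 and 0.840. *Gasp*, which encodes a chitin-binding protein of cuticle and tracheae, was at 1.96 to 6.86 CPM in the controls and 1.77 to 2.96 CPM under the *svp* RNAi label, with a log2 fold change of -0.73 (SE 0.52, edgeR adjusted p = 1.00).

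Idgfs act on cultured cells together with insulin, and of 25 insulin pathway genes in the files 19 were tested. Their log2 fold changes were above 0 for 13 genes and below 0 for 6, with a median of 0.11 beside -0.056 over all genes tested. In edgeR 0 of the 19 had an unadjusted p under 0.05. *Ilp6*, the insulin-like peptide of the fat body, stood at 27.5, 53.2 and 51.7 CPM in the controls and at 16.2, 37.4 and 28.7 CPM under the *svp* RNAi label. Its log2 fold change of -0.69 was the largest of the list in size (SE 0.39, edgeR adjusted p = 1.00). *Thor*, which encodes a translational repressor that insulin signaling keeps low, stood at 180, 416 and 360 CPM against 374, 476 and 451 CPM (log2 fold change 0.44, SE 0.33, edgeR adjusted p = 1.00). The receptor gene *InR* had a log2 fold change of 0.087 and an SE of 0.21.

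**Figure D5:**
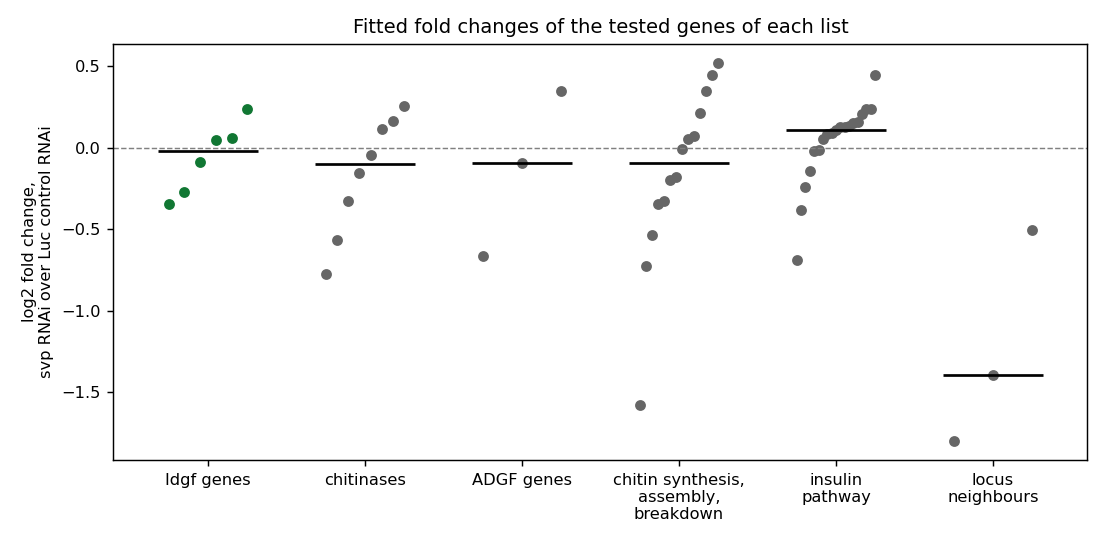
Fitted log2 fold changes (*svp* RNAi label over *Luc* control RNAi) of the tested genes of each list, sorted within a list, with a line at the median. The 6 Idgf genes lie between -0.34 and 0.24, and the values farthest from 0 are those of *jhamt* at -1.80 and *CS-2* at -1.58, neither of which passed the test in edgeR.

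For each member, the 3 genes with the most similar log2 CPM over the 6 libraries were taken by Pearson's r, as a description with no test. For *Idgf4* they were *Stat92E*, the transcription factor of the JAK/STAT pathway (r = 0.999), *CG43114* and *Nmdmc*, a mitochondrial enzyme gene of folate metabolism. *Stat92E* stood at 271, 403 and 463 CPM in the controls and at 346, 414 and 348 CPM under the *svp* RNAi label. *Gel* (gelsolin, an actin-severing protein), *pwn* and *CG5254* were the nearest to *Idgf6*, with r from 0.997 to 0.999. *pwn* was near the floor, at 0.0852 CPM in *Luc* control RNAi replicate 1 and 0.771 to 1.65 CPM elsewhere. *Gel* stood at 524, 1225 and 1381 CPM in the controls and at 1011, 1519 and 1157 CPM under the *svp* RNAi label. Among the genes closest to *Idgf5* were *CG13369* and *Ela*. *Idgf3* was closest to the small heat shock protein gene *Hsp67Bc*, *Nmda1* and *CG6688*, the last at only 1.15 to 5.50 CPM. *Idgf1* was closest to *CG14482*, *CG7766* and *CG33493*, and *Idgf2* to *CG14629*, *CG10320* and *Irp-1A*, an iron regulatory protein gene. Such likeness was common, since between 248 genes (for *Idgf5*) and 519 genes (for *Idgf1*) had an r above 0.95. These values share the depth and scaling of the same 6 libraries, and in each gene named here the lowest library was again *Luc* control RNAi replicate 1.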

How the data were processed

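Poly(A)-selected RNA of 3 libraries per group was sequenced as paired reads. The paper's methods say that the authors used TopHat, with the Ensembl reference, to align and HTSeq to count. The counts were deposited as whole fragments per gene without normalization, and versions, strand setting and treatment of reads with several matches are not given in the sources used here. The deposited FPKM values equal counts over the library total and a length in whole bases. For the 6 genes this was the mean length of their annotated transcripts, so that *Idgf3* was scaled by 2580 bases although 3954 exonic bases are listed. Coordinates of the members in the files equal those of the BDGP6 annotation.

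The counts of all genes were fitted with edgeR 4.0.16 in R 4.3.3 (filterByExpr, TMM, quasi-likelihood test, all 6 libraries, no covariate), with Benjamini-Hochberg adjustment over the 9277 genes kept and a threshold of 0.05. The 95% intervals are those of the fitted difference, with standard errors from the test statistic. The fit was also run on simulated counts. Apart from random spread, the simulated libraries differed only in total and in set fold changes, so a library standing apart was not covered. Alternatives were DESeq2 1.42.0, limma 3.58.1 (voom with sample quality weights, or log2 FPKM with a pseudocount of 1 or 0.1), other scalings and filters, a replicate block and the omission of each library. The 6 members and all lists were chosen with earlier results of these data known. Besides the members, the genes named are, for each member, the 3 tested genes with the highest Pearson's r, and in each list the genes called or, with none, the 2 with the largest fold change in size. Of these, 1 gene is not reported here. *CG5888*, *GstE10*, *InR*, *Cht2* and single markers lie outside that rule and were picked with their values in view. Of 17558 identifiers, 17252 were found in the table of current gene names. Replicates came from independent experiments by the paper's account, while the labels give only their numbers.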

Additional observations from a re-analysis of the deposited data

How the results depend on the processing

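Of 90 values of the members under the alternatives set with the design, 1 passed the threshold, *Idgf3* in limma voom with sample quality weights (log2 fold change -0.74, adjusted p = 0.0466, 1 member called). The median of the members in that fit was -0.52. Fold changes of some genes changed sign, and the cause was not tested. In limma voom they were -0.42 for *Idgf1*, -0.38 for *Idgf2*, -0.19 for *Idgf6*, 0.15 for *Cht4*, -0.068 for *Adgf-D*, 0.090 for *Gasp* and 0.54 for *dac*. *Idgf4* was at 0.061 in limma on log2(FPKM + 1) and on log2(FPKM + 0.1), and at 0.020 with the replicate block. Fits that left out 1 library ranged from -0.26 to 0.35 for *Idgf1*, -0.25 to 0.25 for *Idgf2*, -0.65 to -0.075 for *Idgf3*, -0.37 to 0.24 for *Idgf4*, -0.59 to 0.16 for *Idgf5* and -0.030 to 0.48 for *Idgf6*. The change in share of the summed counts of the family, chosen after seeing the data, had the direction of the fitted value for each member. It comes from the same counts and is not a separate check, and for *Idgf2* it was only 0.0043 on the log2 scale.

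The number of genes called over the whole table was 9. It was 14 with DESeq2 size factors, 25 without a filter, 153 in DESeq2, 604 in limma voom, 55 and 53 in limma on FPKM with a pseudocount of 1 and 0.1, and between 3 and 61 when 1 library was left out, the most without *Luc* control RNAi replicate 1. With the replicate number as a block it was 27. Libraries with the same number deviated together for numbers 1 and 2 (r = 0.50 and 0.54) and not for number 3 (r = -0.31). Control 3 with *svp* RNAi 2 (r = 0.50) and control 1 with *svp* RNAi 3 (r = 0.44) also deviated together, and the rest gave r from -0.68 to -0.36. The numbers were not taken as a pairing, since the labels do not say that they mark a shared day. Of 47 other genes in the lists, *CS-2* and *jhamt* passed the threshold in some alternatives. The depth of 15648948 to 19476599 counts gave each Idgf gene at least 1151 counts in every library.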
